A study of Mus musculus with 6 samples.

Results

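The genes described here encode the proteins of the mitochondrial ribosome. They are the protein-coding genes of the deposited table whose symbol starts with Mrpl or Mrps followed by a number, and 78 of its 54532 genes met this rule, 49 with an Mrpl and 29 with an Mrps symbol. Their values come from RNA of 6 hearts at day 4 from wild-type ICR mice, an outbred stock. Mothers of the 3 control hearts were given citric acid by intraperitoneal injection during the pregnancy. Mothers of the 3 STZ hearts were given STZ the same way, read here as streptozotocin, a toxin of pancreatic beta cells used to model diabetes in pregnancy. The labels name neither litters nor pooling of animals, so p-values measure the spread between these 6 samples, which may in part be technical.

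The mitochondrial ribosome translates the few mRNAs encoded by mitochondrial DNA, all of them for subunits of the respiratory chain and ATP synthase. Its rRNAs are made in the mitochondrion, whereas every one of its proteins is encoded in the nucleus, made in the cytosol and imported. Compared with its bacterial relatives it has lost rRNA and gained proteins. Heart muscle, which depends on oxidative phosphorylation, carries a dense population of mitochondria, and inherited defects of several of these proteins cause infantile cardiomyopathy.

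By the current naming of the ribosome's proteins, 51 of the 78 genes encode large-subunit and 26 small-subunit proteins. Mrps18a and Mrps30 are counted with the large subunit despite their symbols, since their proteins were later located there. Mrps36, now assigned to the ketoglutarate dehydrogenase complex of the citric acid cycle, is in neither subunit. Homologues of bacterial ribosomal proteins make up 46 of the genes, and 31 are specific to mitochondria. They lie on 17 chromosomes, with 11 on chromosome 11, 8 on chromosome 17 and 7 on chromosome 6.

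Some promoters of these genes hold short sequence words known from regulators of nuclear genes for mitochondria, and 32 of the 69 searched hold none of them. RefSeq windows of 300 bases, from 250 before to 50 after the start site (GRCm38.p6), were matched by symbol for 69 of the 78 genes, taking the first window of each. Both strands were searched. The word CCGGAAG, of the GABPA (ETS) motif, was in 36.2% of the 69 windows, against 8.86% of all 32851 windows and 19.2% of those of tested protein-coding genes. For YY1 the word AAGATGGC was in 17.4% against 2.75% and 5.04%, and for NRF1 the word GCATGCGC was in 11.6% against 2.71% and 5.86%. At least 1 of these words was in 37 of the 69 windows and all 3 were in 0. CCGGAAG and AAGATGGC can share the letters AAG. Of the other words, set against tested protein-coding genes, CACGTG (E-box) was in 7.25% against 10.5%, GGGCGG (SP1) in 49.3% against 67.5%, CCAAT in 39.1% against 39.1% and TATAAA in 5.80% against 6.67%. A match describes letters in the window and does not show a binding site.

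Windows are printed 5′ to 3′ on the gene's strand for the genes whose control and STZ values did not overlap (Mrps24, Mrps18c, Mrps15). Those of Mrps12 and Mrps18b are added as examples that hold 2 of the 3 words. Mrpl17, Mrpl22, Mrpl32, Mrpl33, Mrps18a and Mrps27 also hold 2 and are not printed. Capitals mark CCGGAAG, AAGATGGC or GCATGCGC on either strand. The Mrps24 window is chr11:5707652-5707951 on the minus strand, Mrps18c chr5:100798509-100798808 on the plus strand, Mrps15 chr4:126046678-126046977 on the plus strand, Mrps12 chr7:28741772-28742071 on the minus strand and Mrps18b chr17:35916391-35916690 on the minus strand.
Mrps24: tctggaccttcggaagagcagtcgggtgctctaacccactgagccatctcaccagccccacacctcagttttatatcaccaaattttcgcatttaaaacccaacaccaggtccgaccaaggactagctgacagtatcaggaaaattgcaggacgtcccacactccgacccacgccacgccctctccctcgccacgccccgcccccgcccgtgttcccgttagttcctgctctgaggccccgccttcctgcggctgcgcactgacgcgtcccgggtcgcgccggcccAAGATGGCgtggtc
Mrps18c: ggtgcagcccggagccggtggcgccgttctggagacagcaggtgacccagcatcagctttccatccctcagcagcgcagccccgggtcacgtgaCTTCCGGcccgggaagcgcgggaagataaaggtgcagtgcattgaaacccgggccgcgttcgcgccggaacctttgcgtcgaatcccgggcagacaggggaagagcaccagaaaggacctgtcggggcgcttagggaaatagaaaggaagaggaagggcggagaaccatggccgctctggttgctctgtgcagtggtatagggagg
Mrps15: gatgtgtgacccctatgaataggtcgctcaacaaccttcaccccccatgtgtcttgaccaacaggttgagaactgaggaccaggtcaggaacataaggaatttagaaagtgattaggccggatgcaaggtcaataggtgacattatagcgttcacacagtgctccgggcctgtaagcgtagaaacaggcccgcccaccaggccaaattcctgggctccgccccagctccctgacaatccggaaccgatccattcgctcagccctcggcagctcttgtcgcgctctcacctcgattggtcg
Mrps12: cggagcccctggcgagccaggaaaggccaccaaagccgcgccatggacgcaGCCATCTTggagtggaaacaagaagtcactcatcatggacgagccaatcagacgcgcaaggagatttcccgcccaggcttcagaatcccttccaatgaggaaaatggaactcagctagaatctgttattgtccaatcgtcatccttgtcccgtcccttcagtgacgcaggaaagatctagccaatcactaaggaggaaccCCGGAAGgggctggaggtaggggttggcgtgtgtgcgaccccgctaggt
Mrps18b: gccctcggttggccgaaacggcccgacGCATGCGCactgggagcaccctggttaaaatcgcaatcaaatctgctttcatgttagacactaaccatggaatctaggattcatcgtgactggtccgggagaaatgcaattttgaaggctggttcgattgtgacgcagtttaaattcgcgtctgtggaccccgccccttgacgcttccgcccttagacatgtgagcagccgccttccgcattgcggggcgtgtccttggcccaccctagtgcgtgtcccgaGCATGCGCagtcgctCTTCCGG
In these lines Mrps24 shows the YY1 word near the end of the window, past the start site. That window lies inside the gene's deposited span (5703983 to 5715680). Mrps18c shows the ETS word, Mrps12 the YY1 and ETS words, and Mrps18b the NRF1 word at 2 places with the ETS word at the end. The Mrps15 window holds none of the 3.

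The libraries held 16707268 to 18082599 whole reads, recovered from the deposited values, which are FPKM-type values (reads per kilobase of gene length and per a library scale set by the authors). Control 2 stood apart from the other 5 libraries. The scale the authors used for it was 1.21 times its recovered reads, against 0.985 to 1.03 times elsewhere. Its summed cardiomyocyte markers (10 of 10 detected) were 7921 FPKM against 15563 to 18609, atrial markers (7 of 9 tested) 6330 against 48.1 to 131, fibroblast markers (10 of 10) 1896 against 899 to 1147 and erythroid markers (6 of 7 in the table) 14548 against 2229 to 4927. None of these markers was at 0 in every library. Reads of the mitochondrial genome were 6.84% of the total in control 2 and 12.01 to 14.0% in the others. For members, related genes and lists, the log2 fold change without control 2 is given where it changes sign or moves by over 1.5 times. In heart RNA, fewer cells of a type and less RNA per cell cannot be told apart. Whether atrial tissue was taken to the same extent in all 6 samples was not tested.

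Nearly all genes of the mitochondrial ribosome were detected in these hearts. Of the 78 genes, 77 passed the filter on low values (at least 3 libraries with 1 FPKM or above), with 149 to 2931 reads per gene and library. Mrpl53, a large-subunit protein specific to mitochondria, was listed at 0 in all 6 libraries. In GENCODE M21, 88.0% of its exon bases are shared with Gm42688 on the same strand, and how reads in shared bases were counted is not given in the sources used here. The median of the 77 mean levels was 15.6 FPKM, with quartiles of 8.79 and 25.2, against a median of 6.41 FPKM over all 12431 genes tested, and 67 of the 77 were above that median.

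Levels within the set spanned 27.6-fold. Highest was Mrpl34, a large-subunit protein with a bacterial homologue, at 74.3, 76.6 and 71.9 FPKM in controls 1 to 3 and 83.7, 78.8 and 68.7 FPKM in STZ 1 to 3. The next was Mrpl12, the stalk protein that recruits translation factors and also binds the mitochondrial RNA polymerase, at 71.2, 49.9 and 58.0 FPKM in controls and 70.0, 58.0 and 55.2 FPKM in STZ hearts. Mrpl18 (53.8 FPKM over the 6 libraries), of the central protuberance of the large subunit, and Mrps21 (48.4 FPKM), a small-subunit protein with a bacterial homologue, followed. The ranges of Mrpl12, Mrpl18 and Mrps21 overlapped, so their order is not fixed beyond the spread between libraries. The lowest Mrpl34 value (68.7 FPKM) was above the highest Mrpl18 value but below the highest Mrpl12 value (71.2 FPKM). Within each heart Mrpl34 was above Mrpl12.

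At the other end stood Mrps10, a small-subunit protein of the head, at 2.999, 2.54 and 1.86 FPKM in controls and 3.35, 2.66 and 3.04 FPKM in STZ hearts. Mrps25 had a mean of 3.30, Mrpl48 of 4.502 and Mrpl17 of 4.66 FPKM. The first of these is a small-subunit and the others are large-subunit proteins. Mrps25 overlapped in range with Mrps10, and Mrpl48 with Mrpl17. Median levels were 17.6 FPKM for the 50 large-subunit genes tested and 11.4 FPKM for the 26 small-subunit genes.

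**Figure D1:**
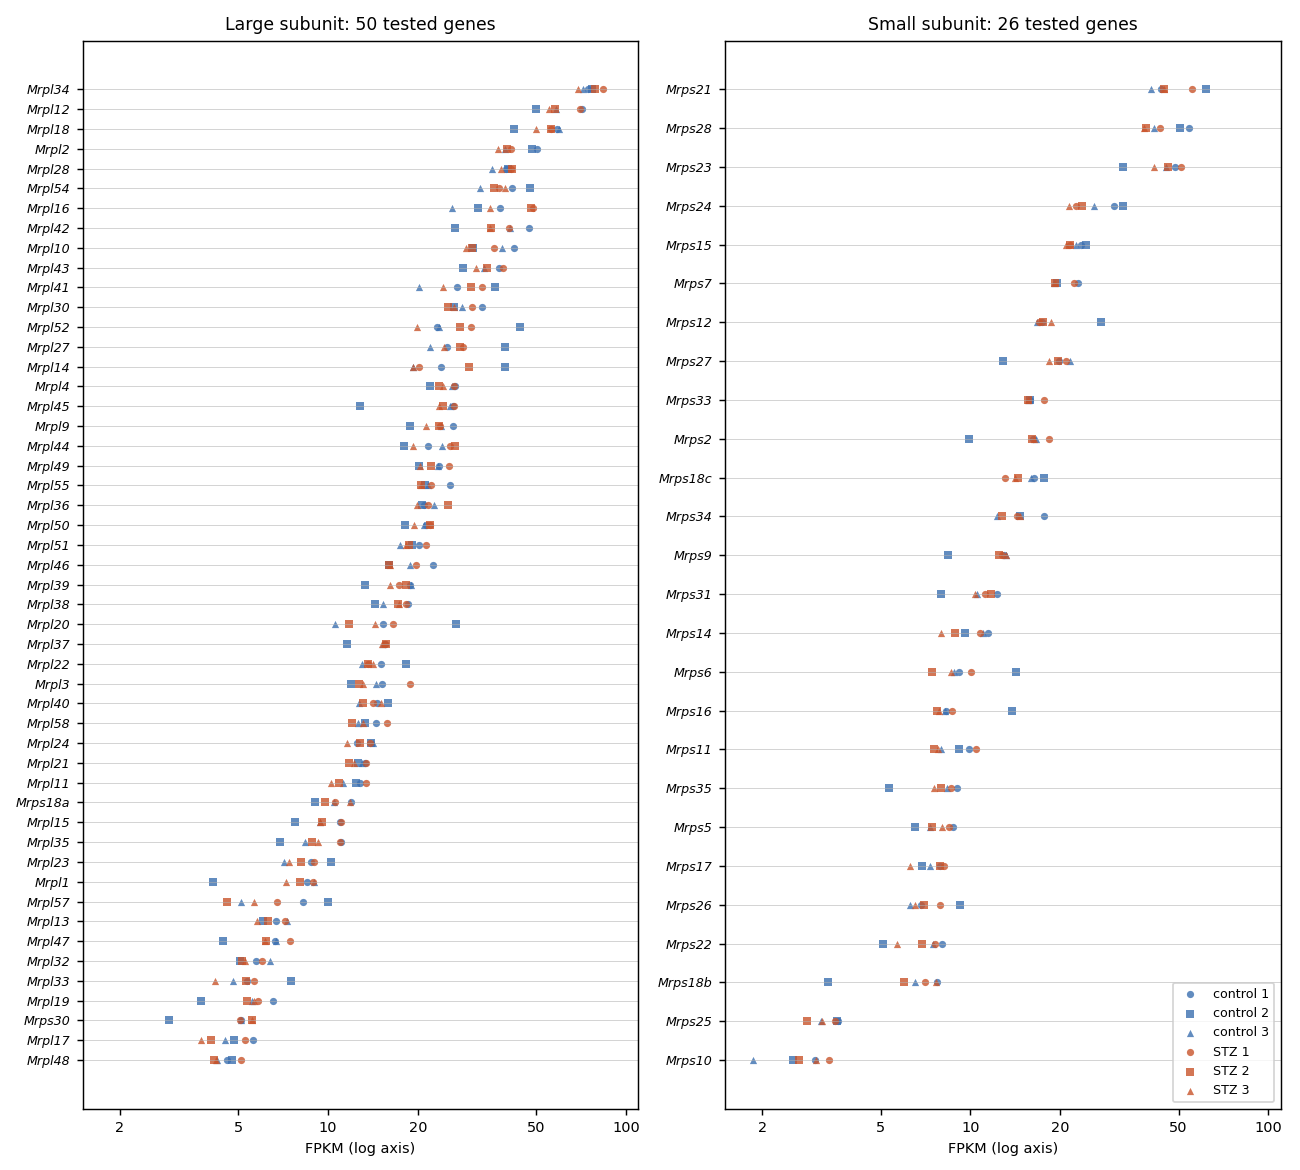
Deposited level of each tested gene in each of the 6 hearts, in FPKM on a log axis, for the large subunit (50 genes, left) and the small subunit (26 genes, right), ordered by mean level. Circles, squares and triangles are replicates 1, 2 and 3, blue for control and orange for STZ. Mrpl34 is at the top near 75.7 FPKM and Mrps10 at the bottom near 2.74, and squares of control 2 stand away from the other marks in many rows.

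Part of this order follows the gene length that the authors divided by. Across the 77 genes, which share their libraries, mean FPKM fell with deposited length (Spearman's rho -0.78, as a description), while mean reads per gene rose with it weakly (rho 0.27). The deposited length was longer than the longest APPRIS principal transcript (the main protein-coding isoform in GENCODE M21) by a median factor of 1.37. For 9 genes that factor was above 3, up to 15.3 for Mrpl33, and the others were Mrpl42, Mrpl30, Mrpl23, Mrps9, Mrps18a, Mrpl13, Mrps22 and Mrps10. Per base of the principal transcript Mrpl42 had the highest value, 208 on the same scale against 37.6 FPKM as deposited, and Mrps10 had 21.8 against 2.74. The orders by both lengths had a rank correlation of 0.73. Which isoforms the reads came from was not tested, and a change of length alters levels between genes but not the ratio between hearts for a gene.

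The comparison of the study's groups asks whether the hearts of offspring of STZ-treated mothers had a different supply of these mRNAs. No member passed the threshold in limma after Benjamini-Hochberg (BH) adjustment over the 12431 genes, where 0.0241% of all genes did (3 genes). The lowest adjusted p among the members was 0.922. At an unadjusted p under 0.05 stood 0 members higher and 2 lower in STZ, against 2.59% of all genes (1.17% higher and 1.42% lower). The log2 fold change, STZ over control, was positive for 37 and negative for 40 of the 77, with a median of -0.008, whereas 57.7% of all genes tested were positive and their median was 0.03. It ran from -0.37 for Mrpl57 to 0.44 for Mrpl16, was within 0.1 of 0 for 40 genes and reached 0.25 in either direction for 10.

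The precision of the design sets what such values can show. The 95% intervals of 75 of the 77 members included 0. For 45 members the whole interval lay within 0.5 of 0 on the log2 scale, and the median interval extended 0.35 to either side. A p that misses the threshold does not show that the groups were alike for any member. An interval within 0.5 of 0 still leaves room for smaller differences, and the intervals are not adjusted for the number of genes.

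The members with the lowest p were lower in STZ hearts and belong to the small subunit. Mrps24 (ENSMUSG00000020477, chromosome 11, 5703983 to 5715680, minus strand), whose protein lines the site where mRNA enters the ribosome, stood at 30.3, 32.5 and 25.9 FPKM in controls 1 to 3 and at 22.5, 23.7 and 21.5 FPKM in STZ 1 to 3. Every STZ value was below every control value. The log2 fold change was -0.37 (SE 0.121, 95% interval -0.66 to -0.08, limma, unadjusted p = 0.019, BH-adjusted p = 0.922). The exact two-sided permutation test gave p = 0.1, the smallest that 3 against 3 samples allow. Mrps24 shares 15.4% of its exon bases with Urgcp on the same strand, so reads there cannot be assigned to either gene from the sources used here.

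Mrps18c (chromosome 5, 100798627 to 100804471, plus strand) is, among the 3 Mrps18 genes, the one whose protein takes the place of the bacterial homologue. It was at 16.4, 17.6 and 16.02 FPKM in controls and 13.1, 14.4 and 14.1 FPKM in STZ hearts, again without overlap. Its log2 fold change was -0.25 (SE 0.098, limma, unadjusted p = 0.040, BH-adjusted p = 0.922). Of its exon bases 23.2% are shared with the predicted gene Gm43511 on the same strand. Mrps18a was at 10.5 ± 1.44 FPKM in controls and 10.7 ± 1.06 in STZ hearts (SD, n = 3 each). Mrps18b was at 5.85 ± 2.26 and 6.88 ± 0.837 FPKM, so these relatives did not share the non-overlap seen for Mrps18c. Without control 2 their log2 fold changes turned negative, at -0.06 for Mrps18a and -0.04 for Mrps18b.

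Mrps15 (chromosome 4, 126046925 to 126055532, plus strand), an rRNA-binding protein of the small subunit, was the remaining gene without overlap. Its values were 23.5, 24.4 and 22.7 FPKM in controls and 21.5, 21.5 and 20.9 FPKM in STZ hearts, and the log2 difference was -0.14 (SE 0.095). It was singled out after its values were seen. In all 3 of 77 members had groups that did not overlap, all with STZ below control, against 8.54% of all genes tested (4.92% with STZ above and 3.62% below). Without control 2 the differences of these genes were -0.30, -0.21 and -0.11 in the order given. Among the further members lower in STZ with overlapping groups, Mrps28, of the small subunit, was at 54.2, 50.6 and 41.5 FPKM against 43.1, 38.8 and 38.2, Mrpl2, a core protein of the peptidyl transferase region, at 50.3, 48.5 and 39.4 FPKM against 41.1, 39.98 and 37.2, and Mrpl57, a small protein of the large subunit (log2 fold change -0.37, and -0.19 without control 2), at 8.26, 9.996 and 5.12 FPKM against 6.75, 4.59 and 5.63. In each of these 3 genes control 3 was below at least 1 STZ value.

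On the other side, Mrpl16 (chromosome 19, 11770415 to 11774944, plus strand), a large-subunit protein near the site of tRNA binding, had the most positive difference. Its values were 37.8, 32.0 and 26.1 FPKM in controls and 48.7, 47.8 and 34.8 FPKM in STZ hearts. STZ 3 lay below control 1, so the groups overlapped. The log2 fold change was 0.44 (SE 0.19, 95% interval -0.01 to 0.89, limma, unadjusted p = 0.054, BH-adjusted p = 0.922), and 0.45 without control 2. Of the 37 members with a positive difference, 21 had a negative one without control 2. Mrps30, a large-subunit protein specific to mitochondria, was at 5.11, 2.92 and 5.10 FPKM in controls and 5.04, 5.55 and 5.53 in STZ hearts, and its difference of 0.27 became 0.06 without control 2. Likewise Mrps2, a homologue of a bacterial small-subunit protein, at 16.2, 9.91 and 16.6 FPKM in controls and 18.4, 16.1 and 16.3 in STZ hearts, moved from 0.27 to 0.04, and Mrpl38, of the large subunit, from 0.13 to 0.05. Mrps10 kept 0.25 without control 2, against 0.22 with it.

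**Figure D2:**
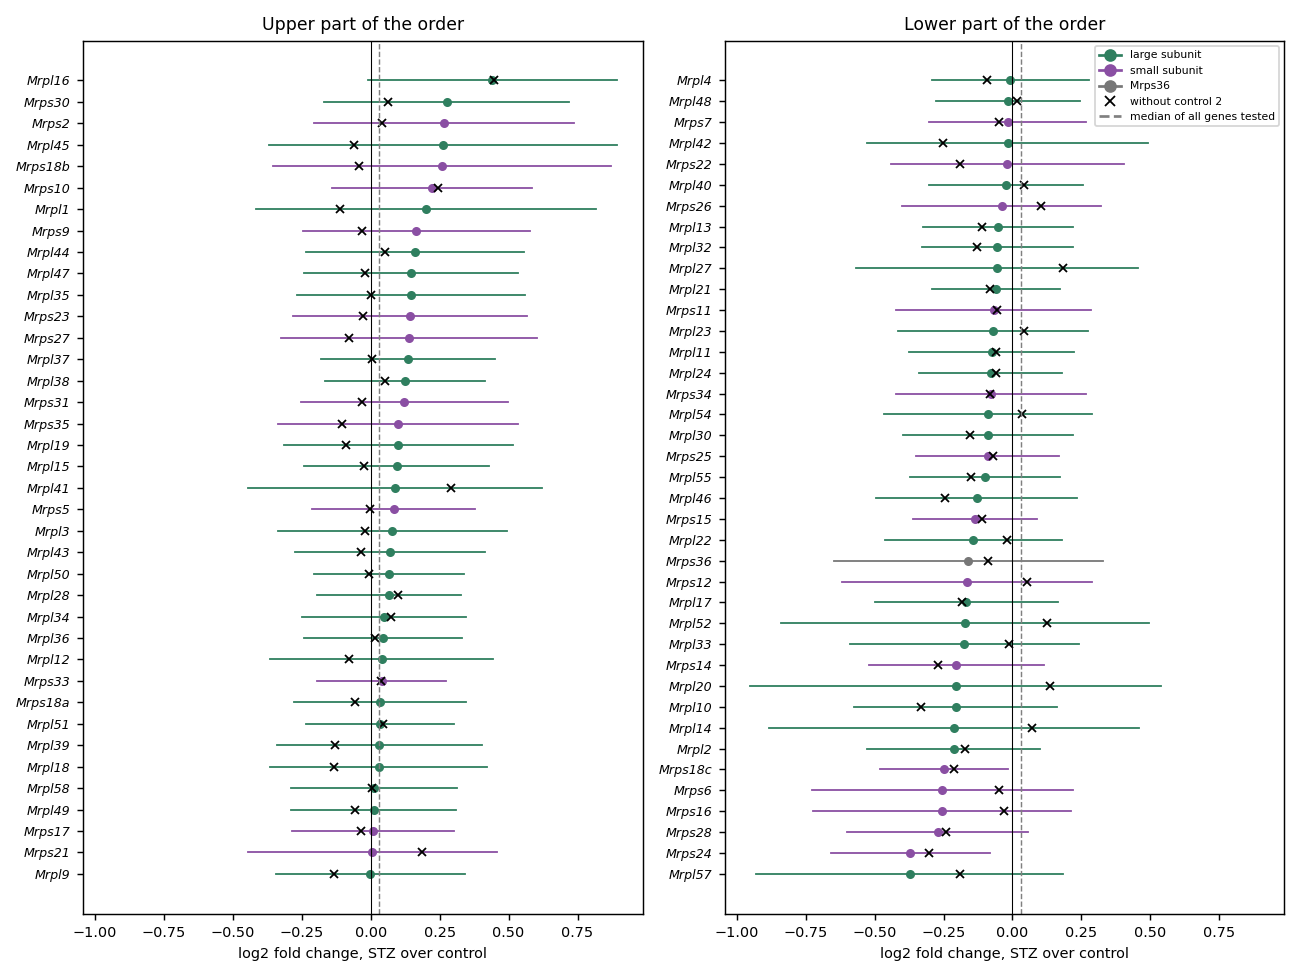
Log2 fold change (STZ over control, on the log2(FPKM + 1) scale) of the 77 tested genes, in order from Mrpl16 at 0.44 (top left) to Mrpl57 at -0.37 (bottom right). Points are the fitted values, lines their 95% intervals, crosses the values without control 2, and the dashed line the median of all genes tested (0.03). Only the lines of Mrps24 and Mrps18c leave out 0.

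Differences of both signs occurred in both subunits. The large-subunit genes had a median log2 fold change of 0.005 (25 positive, 25 negative of 50) and the small-subunit genes of -0.02 (12 positive, 14 negative of 26), against 0.03 over all genes tested. Without control 2 the subunit medians were -0.02 (20 of 50 positive) and -0.05 (6 of 26 positive), against -0.001 over all genes. The homologues of bacterial proteins had a median of -0.05 (18 of 46 positive) and the mitochondria-specific proteins of 0.03 (19 of 30 positive). Without control 2 the medians by origin were -0.05 and -0.03, so the distance between the 2 kinds of protein was smaller. No test was made of these differences, since members are not replicates of a condition.

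Members whose loss causes heart disease in infants or that have other roles showed small differences. Mrpl3, Mrpl44, Mrps22 and Mrps14 are mutated in inherited forms of mitochondrial cardiomyopathy. Mrpl3, which sits near the peptidyl transferase centre, was at 15.2, 11.9 and 14.5 FPKM in controls and 18.8, 12.7 and 13.1 in STZ hearts, and its log2 difference of 0.08 (SE 0.175) turned to -0.02 without control 2. Mrpl44, related to RNase III enzymes, had 0.16 (SE 0.167) and Mrps22 had -0.02 (SE 0.178), and without control 2 these were 0.05 and -0.19. Mrps14 was at 11.4, 9.61 and 11.0 FPKM against 10.7, 8.86 and 7.96, a difference of -0.20 (SE 0.133), and the groups of all 4 genes overlapped.

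The stalk of the large subunit, where translation factors dock, is built from Mrpl10, Mrpl11 and Mrpl12. Mrpl10 was at 42.0, 30.7 and 38.3 FPKM in controls and 35.9, 30.5 and 29.0 in STZ hearts (-0.21, SE 0.155), Mrpl11 differed by -0.08 (SE 0.126) and Mrpl12 by 0.04 (SE 0.171). Without control 2 these values were -0.33, -0.06 and -0.08. For Mrps12, the decoding-site protein, the difference was -0.16 (SE 0.191) with control 2 at 27.3 FPKM and the other 5 hearts at 16.7 to 18.7, and 0.05 without it. Mrps5, another protein of the small subunit, differed by 0.083 (SE 0.125) and Mrpl58, a peptidyl-tRNA hydrolase built into the large subunit, by 0.013 (SE 0.127), and without control 2 by -0.0042 and 0.0044. Mrps36, outside the ribosome, was at 41.1, 36.7 and 23.9 FPKM against 29.5, 27.2 and 31.9 (-0.16, SE 0.205, and -0.09 without control 2).

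Differences between hearts of the same group were as wide as those between the groups. The median deviation of the 77 genes from their own means was 0.10 in control 1, -0.07 in control 2 and -0.02 in control 3. In STZ 1 to 3 it was 0.11, -0.04 and -0.08. Thus, on the authors' scale, 1 control and 1 STZ heart were the highest, and the groups were interleaved. Scaled to recovered reads, control 2 would stand higher against the other hearts. Control 1 gave the highest of the 6 values in 25 of the 77 genes and the lowest in 0. Summed FPKM of the members were 1626, 1508 and 1444 in controls and 1610, 1483 and 1398 in STZ hearts.

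**Figure D3:**
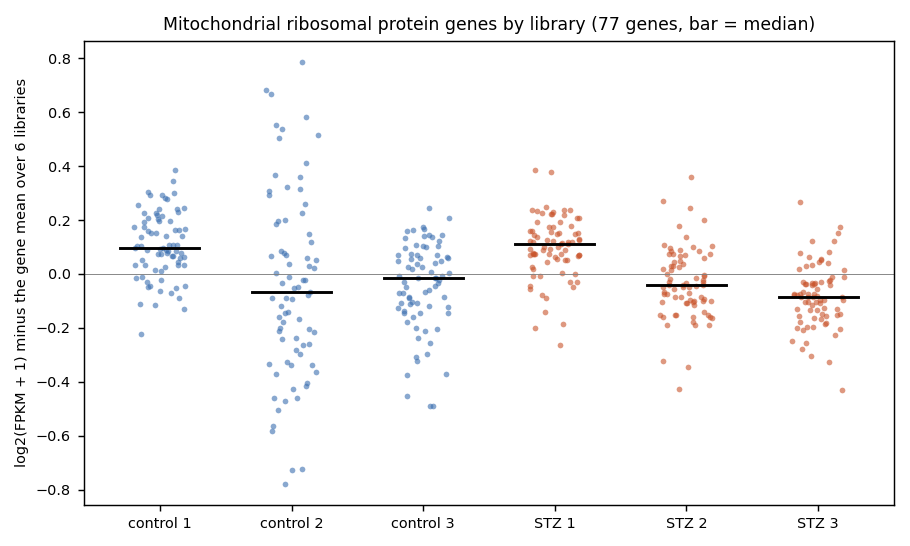
Each point is 1 of 77 genes in 1 heart, as the deviation of log2(FPKM + 1) from that gene's average across hearts. Bars are the library medians, on the authors' library scale. The bars of control 1 (0.10) and STZ 1 (0.11) are the highest, and the points of control 2 spread from about -0.8 to 0.8 while those of the other hearts lie closer together.

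Control 2 reordered the members. Between any pair of the other 5 libraries the ranks of the 77 levels had a Spearman's rho of 0.98 to 0.99, against 0.89 to 0.93 for pairs with control 2. On the authors' scale, control 2 gave the lowest of 6 values in 31 genes and the highest in 19. The median SD of a member over the libraries was 0.18 on the log2 scale with control 2 and 0.12 without it, and the same medians over all genes tested were 0.18 and 0.12. Mrps33 varied least, at 15.9, 15.8 and 15.8 FPKM in controls and 17.6, 15.6 and 15.7 in STZ hearts, followed by Mrpl21 and Mrpl28. Mrpl20 varied most, at 15.3, 26.9 and 10.5 FPKM in controls and 16.5, 11.7 and 14.4 in STZ hearts, and Mrpl14 and Mrpl52 also had their highest value in control 2.

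Gene length moved with this pattern. Control 2 minus the mean of controls 1 and 3 had Spearman's rho of -0.42 and Pearson's r of -0.39 with log gene length over the 77 genes, and -0.28 and -0.25 over all genes tested, values given as descriptions. The medians and counts that follow are on the authors' scale, and scaling to recovered reads would raise control 2. In the 39 genes of 2255 bases or less the median difference was 0.06. Control 2 was above both other controls in 16 of them and below both in 14. In the 38 longer genes the median was -0.26, with 6 above and 26 below. The extremes were Mrpl20 (1.03), Mrpl52 (0.90) and Mrpl14 (0.84) on the upper side and Mrpl45 (-0.97), Mrpl1 (-0.93) and Mrps18b (-0.90) on the lower side, chosen after their values were seen. The summed cardiomyocyte, atrial and erythroid markers of control 2 given above differ in the same library, and their part in this pattern was not tested.

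**Figure D4:**
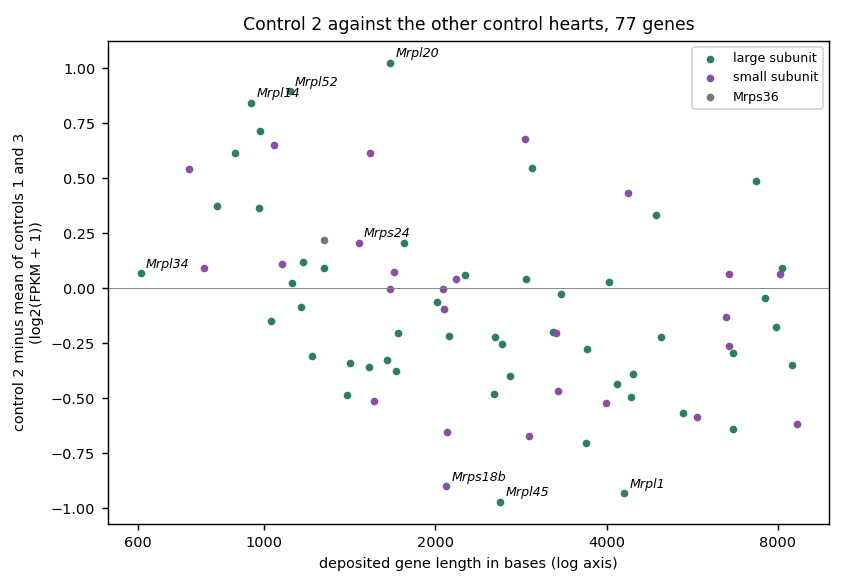
Control 2 minus the mean of controls 1 and 3, in log2(FPKM + 1), against the deposited gene length in bases on a log axis, for the 77 genes. Points are coloured by subunit, and values are on the authors' library scale. Short genes lie on both sides of 0 and most long genes below it (26 of 38 below both other controls), with Mrpl20 at 1.03 and Mrpl45 at -0.97 as the extremes.

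Leaving out control 2 shifted the balance of directions. Positive differences then numbered 26 and negative ones 51 of 77, against 49.5% positive over all genes tested, with a median of -0.034 against -0.001. Of the members 31 changed sign, 21 from positive to negative and 10 from negative to positive. No member passed the threshold in that fit. Control 2 was not alone in this. Leaving out STZ 1 in its place also gave 26 positive members of 77, against 56.9% positive over all genes. The medians were then -0.085 for the members and 0.031 over all genes. Scaling to the recovered reads in place of the authors' scale applies 1 constant per library to every gene. It gave 24 positive members (31.2%) and a median of -0.07, against 44.0% and -0.03 over all genes, and the distance between the medians was -0.047, against -0.040 with the authors' scale.

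Genes that work with the mitochondrial ribosome were read in the same fit, and none passed the threshold. The mitochondrial rRNAs were mt-Rnr1, of the small subunit, at 597, 393 and 692 FPKM in controls and 690, 995 and 542 in STZ hearts (0.40, SE 0.311), and mt-Rnr2, of the large subunit, at 1746, 699 and 1770 FPKM against 1464, 2359 and 1638 (0.46, SE 0.419). Their differences fell to 0.16 and 0.02 without control 2. The library kit was one for mRNA, so these values need not follow the amount of rRNA in the hearts. The 13 mitochondrially encoded mRNAs, the templates of this ribosome, had a median of 0.18 with 9 positive, and of -0.18 with 1 positive without control 2. The lowest p among them was that of mt-Co2, a subunit of cytochrome oxidase, at 799, 328 and 255 FPKM in controls and 174, 186 and 166 in STZ hearts (-1.20, SE 0.405, limma, unadjusted p = 0.021, BH-adjusted p = 0.922). Those groups did not overlap, and control 1 was far above the other controls. The mean of mt-Co2 was 318 FPKM, against a median of 5806 FPKM over the 13 mRNAs and 31487 FPKM for mt-Co1. The others with a negative difference were low too, namely mt-Nd3 (22.0 FPKM), mt-Co3 (167 FPKM) and mt-Atp6 (210 FPKM). So were mt-Nd4l (111 FPKM) and mt-Atp8 (3.73 FPKM), which were positive. Whether reads of these low genes were lost in counting was not tested. The next in p, mt-Co3, another subunit of that enzyme, differed by -0.42 (SE 0.338, limma, unadjusted p = 0.25) and by -0.18 without control 2.

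Proteins of the mitochondrial ribosome that carry other symbols (5 tested) had a median of 0.02 with 3 positive, and of -0.006 with 2 positive without control 2. Among them Aurkaip1, a small-subunit protein, differed by -0.22 (SE 0.124) and Ptcd3, a pentatricopeptide-repeat protein of the small subunit, by 0.28 (SE 0.231), the latter 0.02 without control 2. Factors of ribosome assembly and rRNA modification (24 tested) had a median of 0.03 with 15 positive, and of -0.05 with 10 positive without control 2. Of these, Rbfa, which matures the small-subunit rRNA, stood at 18.7, 23.0 and 17.1 FPKM in controls and 15.5, 16.3 and 14.4 in STZ hearts, without overlap (-0.32, SE 0.135, and -0.20 without control 2). Eral1, a chaperone of the same rRNA, differed by 0.19 (SE 0.104).

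Translation factors (14 tested) had 12 positive and a median of 0.16, which turned to -0.02 with 5 positive without control 2. Tufm, the elongation factor that brings aminoacyl-tRNA, was at 79.9, 50.3 and 73.6 FPKM in controls and 87.4, 76.6 and 86.0 in STZ hearts (0.32, SE 0.193, and 0.12 without control 2). Mtif2, an initiation factor, differed by 0.22 (SE 0.167), and by 0.05 without control 2. The 17 mitochondrial aminoacyl-tRNA synthetases had 13 positive and a median of 0.07, but 9 positive and a median of 0.0004 without control 2. Ears2, the glutamyl-tRNA synthetase, was at 5.50, 3.86 and 5.74 FPKM in controls and 6.82, 6.87 and 6.62 in STZ hearts, without overlap (0.38, SE 0.143, limma, unadjusted p = 0.033, BH-adjusted p = 0.922), and the difference was 0.23 without control 2. Tars2, the threonyl-tRNA synthetase, differed by 0.16 (SE 0.105).

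Genes of mitochondrial DNA transcription and replication (9 tested) had 8 positive and a median of 0.10, but 4 positive and a median of -0.02 without control 2. Twnk, the mitochondrial DNA helicase, was at 6.95, 5.50 and 7.005 FPKM in controls and 7.93, 8.34 and 7.94 in STZ hearts (0.28, SE 0.115, unadjusted p = 0.043 and BH-adjusted p = 0.922 in limma), again without overlap, and 0.19 without control 2. Its exons cover 33.4% of those of Mrpl43 on the opposite strand, and the strand setting of the counting is not given in the sources used here. Tfb2m, a mitochondrial transcription factor, differed by 0.10 (SE 0.128), and by -0.02 without control 2. Transcriptional regulators of nuclear genes for mitochondria (12 tested) had 10 positive and a median of 0.11, led by the coactivators Ppargc1b (0.46, SE 0.269, and 0.13 without control 2) and Ppargc1a (0.44, SE 0.346, and 0.04 without it). The median of the regulators was 0.003 with 6 positive without control 2.

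Cytosolic ribosomal protein genes, given for comparison, stood out in control 2. Of 77 tested cytosolic ribosomal protein genes 9 were positive, with a median of -0.23, and 31 with a median of -0.03 without control 2. On the authors' scale, their summed level was 16362 FPKM in control 2 and 9354 to 11956 in the others. The mitochondrial ribosomal proteins in control 2 (1508 FPKM) lay within the range of the other 5 hearts on that scale. It was 1.21 times the recovered reads in control 2, against 0.985 to 1.03 times elsewhere. Scaled to recovered reads, control 2 would stand higher against the other hearts for both sets. The cytosolic genes with the lowest p were Rpl13a (-0.30, SE 0.149) and Rpl39 (-0.58, SE 0.31), at -0.16 and -0.24 without control 2.

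**Figure D5:**
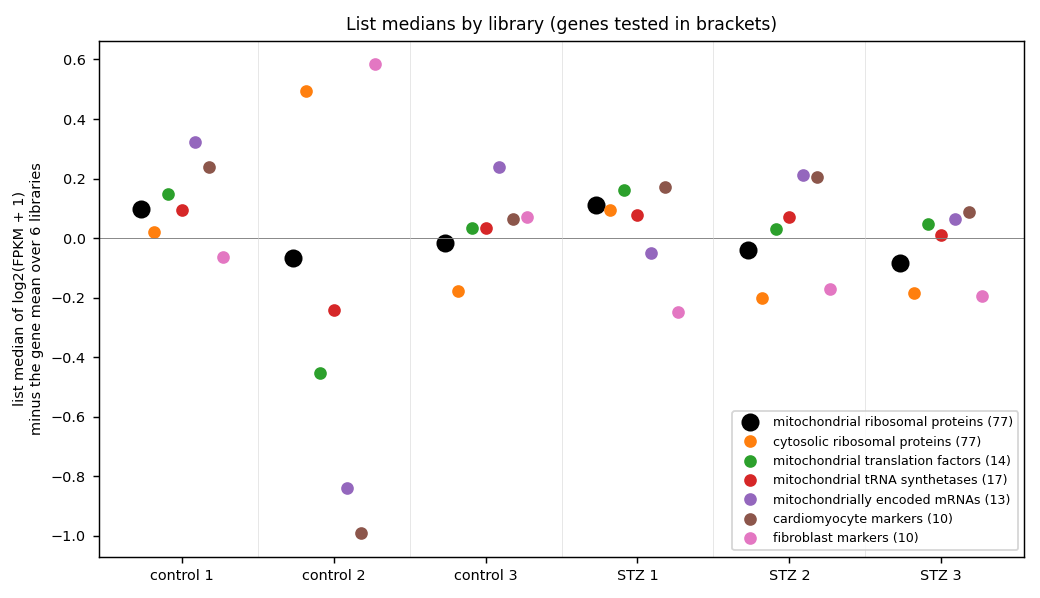
List median, by heart, of the deviation of log2(FPKM + 1) from each gene's average across the 6 hearts, with the genes tested per list in brackets. Values are on the authors' library scale, on which control 2 stands lower than on recovered reads. Of the 7 lists plotted, the cardiomyocyte markers (-0.99) and mitochondrially encoded mRNAs (-0.84) are lowest in control 2 and the fibroblast markers (0.58) and cytosolic ribosomal proteins (0.49) highest, while the mitochondrial ribosomal proteins (black) stay between -0.08 and 0.11 in all 6 hearts.

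Fewer than 50% of the members lie in a head-to-head pair. In GENCODE M21 (GRCm38), 33 of the 78 (42.3%) start within 1000 bases of a protein-coding gene on the other strand that is read in the opposite direction, as do 16.5% of 11133 tested protein-coding genes, and no test of this difference was made. Several of these partners serve the mitochondrion. Mrps12 lies beside Sars2 (seryl-tRNA synthetase), Mrpl43 beside Twnk, Mrpl36 beside Ndufs6 and Mrpl47 beside Ndufb5 (both complex I proteins), Mrps27 beside Ptcd2, and Mrpl46 and Mrps11 beside each other. Mrpl49 lies beside Fau, which encodes a cytosolic ribosomal protein, and Mrps18c beside the helicase gene Helq, 29 bases apart. The 27 partners that were tested, among them the members Mrpl46 and Mrps11, had a median log2 fold change of 0.03, with 18 positive. Over all genes tested the median was also 0.03, with 57.7% positive. Helq differed by -0.08 where Mrps18c differed by -0.25.

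Counting limits touch some members. In 33 of the 78, exon bases are shared with another gene, and in 3 more than 50% are, namely Mrpl53, Mrps25 (69.8%, with Nr2c2 on the opposite strand) and Mrps34 (63.4%, with Mapk8ip3 on the opposite strand). For 18 members there are 24 processed pseudogenes with at least 95% identity over at least 50% of the shorter sequence. The most expressed copy was Gm5776, 99.7% identical to Mrps33, at 11.4 to 19.7 FPKM. Next were AC154457.3, 98.4% identical to Mrps10, at 4.92 to 14.2 FPKM, and Mrpl48-ps, 98.1% identical to Mrpl48, at 5.65 to 8.39 FPKM. These levels are above those of Mrps10 and Mrpl48 themselves, but FPKM are divided by gene length. The deposited lengths of Mrps10 and Mrpl48 are 8079 and 8152 bases, whereas the copies align over 570 and 636 bases. How far reads split between copies lower the rank of both genes was not tested.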

How the data were processed

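RNA of 6 hearts (3 control, 3 STZ) was sequenced with a SMARTER mRNA-seq library kit, per the labels' protocols, on build GRCm38 (mm10), per the submitters' processing notes. The aligner is not given in the sources used here, nor is the counter or its strand setting. The authors deposited 1 table of FPKM-type values. This unit was read from the table's abbreviation and from the values, which times gene length are whole reads (100% within 0.01) after division by 1 constant in each library.

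Groups were compared with limma 3.58.1 (R 4.3.3), using its mean-variance trend and only the group term, on log2(FPKM + 1). The 12431 genes with at least 3 libraries at 1 FPKM or above were fitted, p-values are two-sided, and BH adjustment was over all of them (threshold 0.05). The log2(FPKM + 1) scale understates fold changes of low genes. For single genes, an exact permutation test used all 20 ways to pick 3 of 6 samples. The script was tested on simulated data. Alternatives covered the pseudocount, filter, scaling, array weights, replicate block, protein-coding genes alone, each library left out and, added after the data were seen, voom on recovered reads. A quasi-likelihood count model was not run, since the unit is FPKM.

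The members and all lists were chosen with earlier results of these data known. Named genes were 15 members and the 2 rRNAs whatever their values, the 5 members with the lowest p in each direction, the 4 highest and 4 lowest in level, members under the filter, the 3 most and 3 least variable, and 2 genes with the lowest p per related list. Annotation came from GENCODE M21, copies from blastn 2.17.0, promoters from RefSeq (GRCm38.p6) and figures from matplotlib 3.10.9. Protein sequences were not used here.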

Additional observations from a re-analysis of the deposited data

How the results depend on the processing

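No member passed the threshold under any of the 15 alternatives run, and the lowest adjusted p of a named gene in them was 0.570. Each tested member had 149 reads or more per library, and counting error was not separated from the spread between 3 hearts a group. Samples with equal replicate numbers had correlations of deviations of 0.021, -0.041 and 0.092 for numbers 1 to 3. Those with unequal numbers had -0.14 to 0.081. Whether equal numbers mark a shared litter or batch cannot be told from these values. With the replicate block the calls over all genes went from 3 to 0, and the members past the threshold stayed at 0. Calls over all genes were 8 with array weights, 0 among protein-coding genes alone and 2 to 5 with 1 library left out (5 without control 2). Members with a positive difference numbered 37, but 24 with recovered-read scaling, 19 with array weights and 26 to 45 with 1 library left out (44.0%, 51.1% and 49.5 to 58.6% over all genes). Members without overlap numbered 3, but 6 with recovered-read scaling and 4 to 16 with 1 library left out, where fewer samples make a gap easier. Over all genes the share was 7.98% with recovered-read scaling, where the members' was 7.79%. It was 17.7% without STZ 1 (16 members, 20.8%), 22.7% without control 3 (11, 14.3%), 20.4% without control 1 (10, 13.0%), 17.7% without control 2 (10, 13.0%), 17.3% without STZ 3 (9, 11.7%) and 13.8% without STZ 2 (4, 5.19%).

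With 1 library left out, list medians ranged from -0.047 to 0.081 for assembly factors, -0.025 to 0.16 for mitochondrial DNA genes and 0.0029 to 0.17 for regulators, lowest in each without control 2. They ranged from -0.099 to 0.14 for ribosomal proteins with other symbols, lowest without control 3. Of 53 named genes tested, 35 had no sign change and 18 had one. Outside recovered-read scaling, described next, the cause was not tested. Recovered-read scaling lowers the log2 fold change of all genes by a median of 0.059, so small positive values turn negative by construction. The reversed values were -0.027 for Mrpl12, -0.038 for Mrpl18, -0.00023 for Mrpl28, -0.018 for Mrpl34, -0.051 for Mrpl58, -0.027 for Mrps18a, -0.061 for Mrps21 and -0.025 for Mrps33. With array weights they were -0.13 for Mrpl12, 0.11 for Mrpl14, -0.094 for Mrpl18, -0.081 for Mrpl3, 0.11 for Mrpl52, -0.071 for Mrpl58, 0.014 for Mrps12, -0.10 for Mrps18a, -0.075 for Mrps18b, -0.049 for Mrps5 and -0.013 for Tfb2m. With quantile normalization they were -0.018 for Mrpl58 and -2.5e-05 for Mrps21. With TMM scaling the value was -9.9e-05 for Mrps21, and with voom -0.0042 for Mrps21. With 1 library left out, values changed sign within these ranges: Mrpl12 -0.079 to 0.17, Mrpl14 -0.42 to 0.070, Mrpl18 -0.13 to 0.12, Mrpl20 -0.50 to 0.14, Mrpl3 -0.091 to 0.18, Mrpl34 -0.012 to 0.13, Mrpl48 -0.094 to 0.031, Mrpl52 -0.33 to 0.13, Mrpl58 -0.088 to 0.092, Mrps12 -0.28 to 0.053, Mrps18a -0.057 to 0.12, Mrps18b -0.042 to 0.46, Mrps21 -0.11 to 0.19, Mrps22 -0.19 to 0.092, Mrps33 -0.014 to 0.066, Mrps5 -0.0042 to 0.18 and Tfb2m -0.025 to 0.16. The count model planned on recovered reads was not run.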
